A study of Mus musculus with 20 samples.

Results

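Hearts of female and male mice kept on a high-fat diet were compared gene by gene, in 5 libraries of each sex, which are 10 of the 20 samples of the series. All mice were 12-week-old wild-type C57BL/6, with no transgene or drug named in the labels, and the other samples are hearts of 5 females and 5 males on chow. Messenger RNA was selected by its polyA tail from tissue kept in RNAlater. The libraries of the compared groups are named PA. Since chow and a high-fat diet are the only diets of the series text, and every other library carries the name chow, PA was taken to mean the fat-rich diet. Libraries were assigned to the groups by their labels: the 5 PA females against the 5 PA males, with counts summed per gene and genes of chromosomes 1 to 19 reported. Of 18035 genes tested, 17430 were autosomal. Throughout, a difference is female minus male on the log2 scale, a level is in CPM (a gene's share of the library's counts, scaled to a fixed total), and a gene is called when edgeR's quasi-likelihood test gives an adjusted p under 0.05 (Benjamini-Hochberg over all genes tested). CPM is not divided by gene length, so levels are compared between libraries and not between genes. The labels do not say that samples came from separate animals, so p-values speak of the spread among these samples, which may be technical. The labels give neither the hour of tissue collection nor the length of the diet.

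The quality of the libraries bears on every result. The libraries labelled high-fat female 4 and 5 stood apart: their log2 levels rose by 0.595 and 0.857 per 10 points of GC content of a gene, against -0.065 to 0.136 in the other 17 libraries, and Malat1, a nuclear non-coding RNA, was at 117 and 63.8 CPM there against 1130 to 1395 CPM in the other 8 high-fat libraries. Counts are therefore given in the fit of 19 libraries and, for most lists, again in a fit without these 2 (17 libraries, with females 1 to 3 against the 5 males). Of the 69 genes described with their own difference and called in the fit of 19, Cpt1a, Ucp2 and Ankrd1 were not called in that of 17, and the second value is given for some of the others. Xist and Y-linked genes were used only as label checks. Kdm5d, a Y-linked gene, was at 0 in all 5 females and at 17.96 to 22.9 CPM in the males. Xist, the RNA that coats the inactive X, was at 10.6 to 144 CPM in females and 0.144 to 0.820 CPM in males, lowest among females in females 4 and 5. The tissue label matched its markers, since 11 ventricular cardiomyocyte genes summed to 65180 to 81750 CPM in females and 66030 to 70580 CPM in males. The brown fat marker Ucp1 had no count in any of the 10 libraries (3 counts would be 0.0538 CPM in the smallest), and the fat cell marker Adipoq was at 0.0141 to 0.454 CPM. Total counts were 57805110 to 85794067 per library; a read that spans several exon pieces counts more than once.

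Between the sexes, 1782 autosomal genes were called on high fat, which is 10.2% of those tested: 1118 higher in females (6.41%) and 664 lower (3.81%). With these 2 libraries left out, 1810 were called (10.3%), 859 higher (4.87%) and 951 lower (5.39%). Called the same way in both fits were 1039 genes, 589 higher and 450 lower, or 5.96% of the 17425 autosomal genes tested in both. No gene was called in opposite directions, but 743 were called in the fit of 19 libraries and not in that of 17, and 764 the other way round. In 1722 genes (9.88%) the 5 females all lay beyond every male, 838 above and 884 below. Of the 1782 called genes, 1125 were among them, so a lack of overlap was common in called genes. Most called differences were modest: 132 of the 1782 exceeded 2-fold, and 97 of those were called in both fits. Genes called higher in females had a median GC content of 54.8% and those called lower 44.7%, against 49.8% over all autosomal genes tested, and the gap persisted without females 4 and 5 (53.5% and 44.8%). A GC correction for each library in the fit of 19 gave 1098 calls, 653 higher and 445 lower, of which 702 were called the same way without it. In the fits of 19 and 17 libraries and in this corrected one, 560 genes were called the same way. In the fit of 17 libraries the same correction gave 1915 calls, of which 28.6% were higher in females, against 47.5% without it, and 1310 genes were shared. The count also turned on single libraries. It was 3393 without high-fat female 1, 1049 without female 4, 1037 without male 3, 1118 without male 4 and 1161 without male 5. The fit of 17 libraries gave 807 without female 2 and 565 without female 3. DESeq2 called 52.4% of its genes higher in females, against 62.7% in edgeR.

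The largest differences included genes of the circadian clock. In this clock the activators BMAL1 (encoded by Arntl), CLOCK and NPAS2 drive genes through E-box sequences, among them the repressors of the PER and CRY families, which then inhibit the activators. REV-ERB proteins (Nr1d1, Nr1d2) and ROR proteins compete at ROR elements, through which they repress and activate Arntl, and the PAR bZIP factors DBP, TEF and HLF act on D-boxes, where NFIL3 opposes them. Heart tissue runs this loop itself, and in it Arntl and Dbp peak at opposite times of day.

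Promoter windows of clock genes that differed between the sexes are shown because these elements define the limbs of the loop. RefSeq's table held at least 1 promoter for 18 of the 23 clock genes listed, from 250 bases before to 50 bases after the start of transcription in the build GRCm38.p6, and each is written 5′ to 3′ on the strand of the gene. Capitals mark matches to the E-box CACGTG, the D-box TTANGTAA or the ROR element (ANNTN followed by GGTCA), each searched on both strands. The first shown, Ciart (chr3:95882179-95882478, minus strand), held 3 E-boxes, at bases 135, 193 and 207 of the window. Per3 (chr4:151044616-151044915, minus strand) held 2 D-boxes, at bases 46 and 93. For Arntl, the window at chr7:113207261-113207560 (plus strand) held a ROR element at base 278. Cry1 (chr10:85185005-85185304, minus strand) held 1 E-box, at base 191. In the window of Dbp (chr7:45704997-45705296, plus strand) none of the 3 was found.
Ciart: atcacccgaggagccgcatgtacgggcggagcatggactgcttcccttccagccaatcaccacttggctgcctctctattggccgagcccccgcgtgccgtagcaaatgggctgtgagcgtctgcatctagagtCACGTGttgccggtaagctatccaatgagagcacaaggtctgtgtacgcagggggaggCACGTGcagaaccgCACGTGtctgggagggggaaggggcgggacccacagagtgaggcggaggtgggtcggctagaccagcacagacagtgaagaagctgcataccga
Per3: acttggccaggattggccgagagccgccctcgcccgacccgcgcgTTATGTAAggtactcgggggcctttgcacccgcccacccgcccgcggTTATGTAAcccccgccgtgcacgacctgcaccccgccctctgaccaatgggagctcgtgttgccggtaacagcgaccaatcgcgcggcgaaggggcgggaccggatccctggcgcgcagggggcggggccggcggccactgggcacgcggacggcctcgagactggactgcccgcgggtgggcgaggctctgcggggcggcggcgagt
Arntl: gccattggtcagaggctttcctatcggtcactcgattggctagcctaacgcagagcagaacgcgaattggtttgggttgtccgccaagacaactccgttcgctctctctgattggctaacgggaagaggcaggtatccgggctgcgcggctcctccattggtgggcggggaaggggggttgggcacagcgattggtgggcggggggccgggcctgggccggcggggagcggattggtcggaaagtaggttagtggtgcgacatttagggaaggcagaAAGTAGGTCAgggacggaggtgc
Cry1: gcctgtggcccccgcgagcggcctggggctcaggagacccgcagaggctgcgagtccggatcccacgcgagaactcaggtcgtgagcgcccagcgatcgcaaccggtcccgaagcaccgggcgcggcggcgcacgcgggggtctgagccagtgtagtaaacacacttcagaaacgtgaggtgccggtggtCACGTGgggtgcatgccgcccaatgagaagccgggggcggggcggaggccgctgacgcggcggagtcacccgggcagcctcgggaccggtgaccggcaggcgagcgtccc
Dbp: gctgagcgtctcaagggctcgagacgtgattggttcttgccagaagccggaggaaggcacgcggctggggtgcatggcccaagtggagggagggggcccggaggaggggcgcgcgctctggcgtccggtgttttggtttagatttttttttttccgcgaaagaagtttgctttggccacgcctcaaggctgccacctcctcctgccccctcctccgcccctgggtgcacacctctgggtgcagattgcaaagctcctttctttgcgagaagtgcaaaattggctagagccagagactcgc

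An E-box was in 7.15% of all 32851 promoter windows of the table and in 6 of the 26 windows of clock genes, which belong to Bhlhe41, Ciart, Cry1, Per1 and Tef. The D-box was in 2.32% and the ROR element in 2.46% of all windows, and among clock genes in Per3 alone and Arntl alone. No window of a clock gene held matches of 2 different motifs. Counted by gene, an E-box was in 11.4% of 431 genes called higher in females in both fits, in 9.73% of 339 called lower and in 11% of 11841 autosomal genes tested that had a window. The matches are a description of these letters and not of binding.

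Of the 23 clock genes, all tested, 11 were called higher in females and 5 lower, against 6.41% and 3.81% of all autosomal genes. Leaving out females 4 and 5 gave 11 and 6, against 4.87% and 5.39% of all genes, and 10 and 5 were called in both fits. The median difference over the list was 0.41 (0.31 without females 4 and 5), against 0.014 (0.005) over all genes. Leaving out any single library gave 10 to 12 higher and 5 or 6 lower in the fit of 19. With the GC correction the counts were 10 and 7.

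Among the outputs of the loop, Dbp (chr7:45705088-45710203, plus strand) differed most. It was at 78.0, 105, 100, 137 and 134 CPM in females 1 to 5 and at 13.6, 13.2, 18.9, 19.4 and 10.8 CPM in males 1 to 5, so every female lay far above every male. The difference was 2.87 ± 0.19 (SE; adjusted p = 2.43e-08) and 2.64 ± 0.16 without females 4 and 5. Tef, a second PAR bZIP factor, had means of 119 ± 14.3 CPM in females and 62.9 ± 7.14 CPM in males (SD, n = 5 each), a difference of 0.92 ± 0.09. Hlf, the third, was at 19.1, 21.5, 21.1, 23.4 and 14.3 CPM in females and 8.19 to 12.3 CPM in males (0.95 ± 0.14). Their opponent Nfil3 lay the other way, at 3.16 to 4.47 CPM in females and 4.84 to 7.55 CPM in males (-0.73 ± 0.13, adjusted p = 0.00255). None of the 4 overlapped between the sexes, and neither did 1125 of the 1782 genes called in the fit of 19. The call of Nfil3 without females 4 and 5 was lost when female 3 was left out as well.

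Of the repressors, Per3, Per2, Ciart, Cry2 and Bhlhe41 were higher in females and Cry1 was lower. Per3 was at 27.1, 38.2, 37.2, 28.6 and 22.1 CPM in females and at 9.65 to 14.2 CPM in males (1.35 ± 0.17, adjusted p = 0.000151). Per2 was at 11.7, 15.4, 14.9, 15.4 and 16.2 CPM in females and 4.22 to 8.38 CPM in males (1.24 ± 0.21, adjusted p = 0.00164). Per1, which glucocorticoids also induce, overlapped between the sexes, at 44.1 to 80.5 CPM in females and 37.3 to 61.7 CPM in males, and was not called (0.41 ± 0.26, adjusted p = 0.274). Ciart, which encodes the repressor CHRONO, was at 5.98, 8.05, 9.37, 12.3 and 13.3 CPM in females and 2.19 to 3.68 CPM in males (1.71 ± 0.24). Its call was lost when only the largest exon piece of each gene was counted, and so was that of Per3. The 2 cryptochromes lay in opposite directions. Cry2 was at 24.7 to 41.1 CPM in females and 19.2 to 22.6 CPM in males (0.74 ± 0.11, adjusted p = 0.000419), whereas Cry1 was at 8.56 to 9.97 CPM in females and 12.0 to 14.4 CPM in males (-0.54 ± 0.08, adjusted p = 0.000383). Bhlhe41, an E-box repressor also known as DEC2, had means of 34.8 ± 5.55 and 19.7 ± 1.65 CPM (0.82 ± 0.10).

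The activator Arntl (chr7:113207465-113314126, plus strand) was at 10.4, 6.53, 7.66, 6.55 and 6.61 CPM in females and at 34.2, 32.0, 28.9, 25.2 and 34.9 CPM in males. The difference was -2.04 ± 0.15 (adjusted p = 1.41e-07) and -1.93 ± 0.16 without females 4 and 5, with no overlap. Npas2, a partner of BMAL1, was at 2.31 to 4.21 CPM in females and 8.13 to 10.3 CPM in males (-1.59 ± 0.14, adjusted p = 1.87e-06). Clock itself could not be read across all 5 females, since it was at 42.9, 33.8 and 30.5 CPM in females 1 to 3 but at 6.46 and 5.61 CPM in females 4 and 5. Males were at 48.5 to 51.2 CPM. It was not called in the fit of 19 libraries (-1.07 ± 0.39, adjusted p = 0.0815) and was called without females 4 and 5 (-0.50 ± 0.08, adjusted p = 0.00102). Nr1d1, a repressor of Arntl, was at 97.8 to 150 CPM in females and 52.2 to 63.1 CPM in males (1.07 ± 0.10, adjusted p = 4.65e-06). Its paralog Nr1d2 followed the same split of libraries as Clock, at 88.8, 95.2, 81.7, 43.1 and 18.6 CPM in females and 52.4 to 69.1 CPM in males. The difference in Nr1d2 was 0.13 ± 0.28 (adjusted p = 0.781) with all 5 females and 0.56 ± 0.09 (adjusted p = 0.00083) with females 1 to 3.

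**Figure D1:**
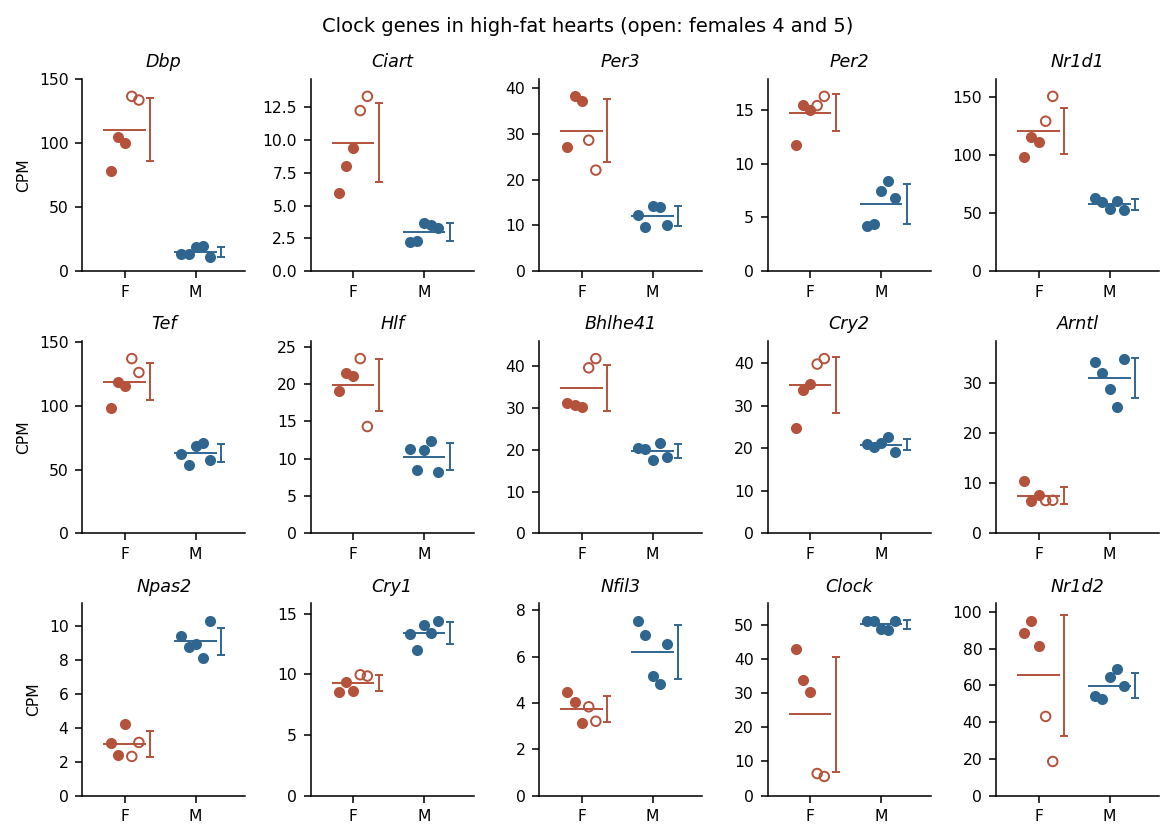
Levels of 15 clock genes in CPM (linear axes from 0) in each high-fat library, females (F) and males (M), with the mean as a line and the SD as a bar; open points are females 4 and 5. Dbp, Per3 and Nr1d1 sit higher in all 5 females and Arntl, Npas2 and Cry1 lower, while Clock and Nr1d2 are lowest in the open points.

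The extracellular matrix surrounds heart muscle cells and is made largely by fibroblasts: fibrillar collagens bear tension, small proteoglycans such as lumican space the fibrils, and elastin with the cross-linking enzyme lysyl oxidase gives recoil to vessel walls. Of 38 matrix genes tested, 13 were called higher in females and 2 lower in each fit, 12 and 2 of them in both, with a median difference of 0.20 (0.18 without females 4 and 5). The count of higher genes was 10 to 16 when single libraries were left out of the fit of 19. In the fit of 17 it was 7 without female 3. Over all autosomal genes tested, 6.41% were called higher and 3.81% lower in the larger fit and 4.87% and 5.39% in the smaller one.

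Col14a1 (chr15:55307750-55520803, plus strand), a collagen that binds to fibril surfaces, was at 47.9, 50.4, 47.1, 43.9 and 43.8 CPM in females and 13.1, 20.4, 18.9, 16.1 and 17.3 CPM in males. The groups lay far apart, with a difference of 1.44 ± 0.12 (adjusted p = 9.13e-07). Fibrillar collagens differed less. Col1a1 was at 168, 196, 219, 191 and 197 CPM in females and 129 to 157 CPM in males (0.44 ± 0.07, adjusted p = 0.000625), a call lost when only the largest exon piece was counted. Col1a2, which forms the same type I fibrils, was at 277 to 321 CPM in females and 216 to 243 CPM in males (0.41 ± 0.06, adjusted p = 0.000247). Col3a1, the type III chain, was at 538 to 811 CPM in females and 416 to 509 CPM in males (0.49 ± 0.08, adjusted p = 0.00165). Lum, the gene of lumican, was at 44.2 to 57.8 CPM in females and 32.0 to 36.3 CPM in males (0.60 ± 0.09, and 1.124 with the GC correction of 19 libraries). In none of these 5 did the sexes overlap, nor did they in 1125 of all 1782 genes called in the fit of 19. Outside the list, Mfap4, a microfibril protein, was at 8.50 to 16.8 CPM in females and 4.47 to 7.12 CPM in males (1.12 ± 0.17).

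The 2 matrix genes called lower in females were Lox and Eln. Lox, the lysyl oxidase, was at 1.61, 1.40, 1.21, 0.867 and 0.424 CPM in females and 2.01 to 3.29 CPM in males (-1.29 ± 0.25, adjusted p = 0.00421). Eln, which encodes elastin and was singled out after its values were seen, was at 40.0 to 55.9 CPM in females and 60.1 to 89.8 CPM in males (-0.72 ± 0.14, adjusted p = 0.00352). Its call was lost when females 2, 4 and 5 were left out.

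Most fibroblast markers lay on the same side as the collagens. Of 19 differences, 13 were above 0, and 17 without females 4 and 5, with a median of 0.33 (0.28). Among the 19 markers, 3 are those collagens, and Lum is also in the matrix list. Of the 19, 10 were called higher in females and none lower, against 6.41% and 3.81% of all genes. Without females 4 and 5, 8 were called higher, against 4.87%. In the fit of 17 libraries the count was 4 without female 2. Their summed level was 3448 to 4235 CPM in females and 3032 to 3293 CPM in males. In whole tissue, more cells of a type and more RNA per cell cannot be told apart. Not every defining marker was called: Pdgfra was at means of 46.2 and 43.0 CPM in females and males (adjusted p = 0.185), and Dcn at 356 and 364 CPM (adjusted p = 0.692). Dkk3, a secreted glycoprotein that is also among the atrial markers listed, was at 2.16, 2.71, 3.25, 2.68 and 2.32 CPM in females and 0.678, 0.664, 0.816, 0.682 and 0.894 CPM in males (1.81 ± 0.16, adjusted p = 2.48e-06). The 10 atrial genes summed to 1117 to 1461 CPM in females and 1118 to 1242 CPM in males, and the part of atrial tissue in the result was not tested. Of 14 markers of smooth muscle cells and pericytes, 4 were called higher (Pdgfrb, Kcnj8, Cspg4 and Notch3) and none lower. Over all genes 6.41% were called higher and 3.81% lower. The median over the 14 was -0.01, with 7 differences above 0, and Kcnj8 is also among the ion channels described below. The count of markers called higher was 3 without females 4 and 5, against 4.87% of all genes, and 1 when female 3 was left out of that fit. In the fit of 19 it was 2 without female 3. The GC correction of 19 libraries gave 1, and Notch3 was among the calls lost. Cspg4, the pericyte proteoglycan NG2, was at 17.1 to 22.1 CPM in females and 11.8 to 15.4 CPM in males (0.54 ± 0.09), a call lost with the largest exon piece alone. The summed level of the 14 overlapped between the sexes, at 801.9 to 1450 CPM in females and 1343 to 1464 CPM in males.

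**Figure D2:**
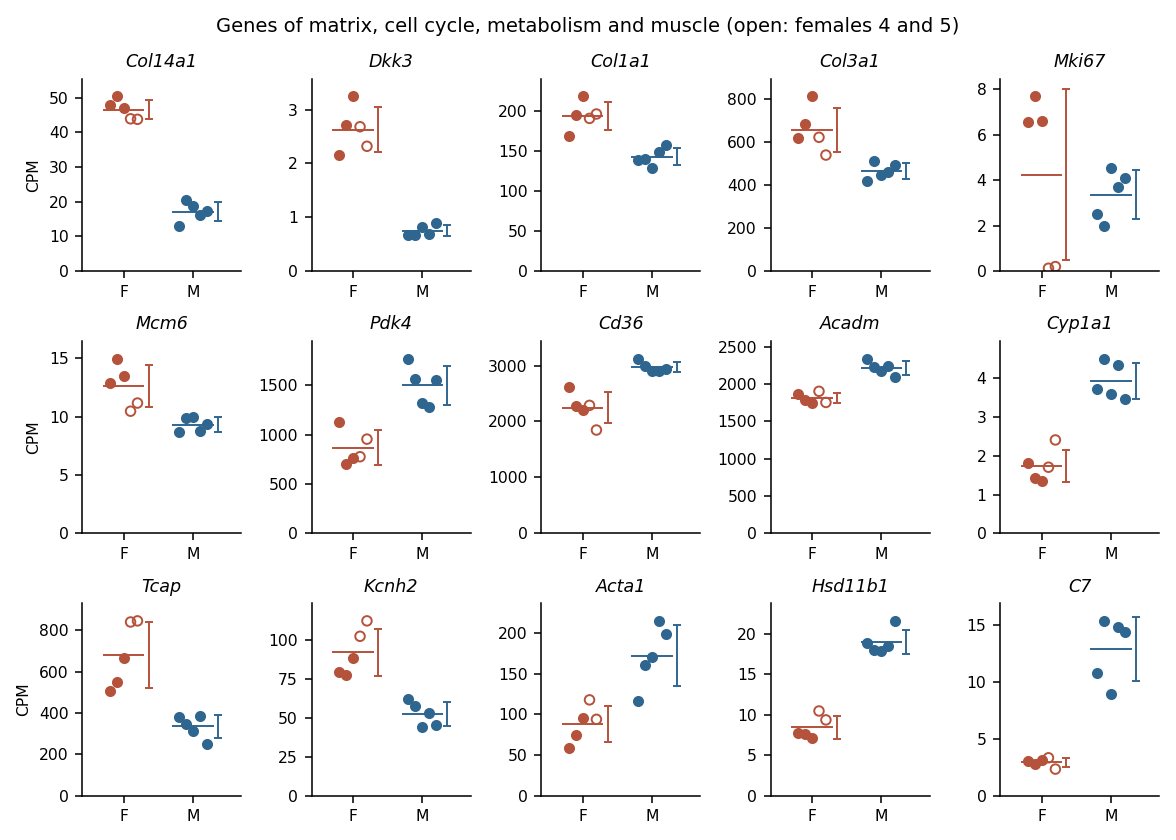
Levels of 15 genes of matrix, cell cycle, metabolism and muscle in CPM (linear axes from 0) in each high-fat library, females (F) and males (M), with the mean as a line and the SD as a bar; open points are females 4 and 5. Col14a1 and Dkk3 sit higher in all 5 females and Hsd11b1 and C7 lower, while Mki67 falls close to 0 in the open points.

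The called genes of the cell cycle were all higher in females, and their number depended on females 4 and 5. Of 34 tested, 6 were called higher (Cdc20, Mcm2, Mcm3, Mcm5, Mcm6 and Mcm7) and none lower in the fit of 19 libraries, against 6.41% and 3.81% of all genes. Without those 2, 22 were higher and none lower, against 4.87% and 5.39%. The medians were 0.41 and 0.64. In the smaller fit all 34 differences were above 0, and the count was 8 when female 2 was left out. Mcm genes encode the helicase that opens DNA for replication. Mcm6 was at 12.9, 14.98, 13.5, 10.5 and 11.2 CPM in females and 8.67 to 9.95 CPM in males, with no overlap (0.43 ± 0.09, adjusted p = 0.00437). The call of Mcm6 was lost with the largest exon piece alone and with only the 2 groups fitted. Mcm5 was at 6.13, 7.52, 7.01, 4.31 and 5.87 CPM in females and 2.73 to 4.03 CPM in males (0.79 ± 0.14, adjusted p = 0.00259). Mcm7 differed by 0.33 ± 0.08, a call lost with the largest exon piece alone and with the GC correction. Mcm3 differed by 0.42 ± 0.10, a call lost with only the 2 groups fitted and, in the fit of 17, without female 2 or female 3. Mki67, the gene of the proliferation marker Ki-67, was at 6.58, 7.70 and 6.63 CPM in females 1 to 3, at 0.124 and 0.197 CPM in females 4 and 5, and at 1.99 to 4.54 CPM in males. Its difference was 0.34 ± 0.65 (adjusted p = 0.748) with all females and 1.05 ± 0.19 (adjusted p = 0.00189) with females 1 to 3. Spag5, a spindle protein gene, had the same pattern, at 1.74, 2.29 and 2.52 CPM in females 1 to 3, at 0.592 and 0.394 CPM in females 4 and 5, and at 0.565 to 1.09 CPM in males (1.30 ± 0.24 without females 4 and 5, adjusted p = 0.00184).

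Interferon-inducible genes, which cells switch on in antiviral defence, had mostly differences above 0, with few calls in the fit of 19 libraries. Of 34 tested, 2 were called higher (Ifit3 and Oasl2), a share near the 6.41% of all genes, and none lower. With females 1 to 3 alone, 8 were called higher and none lower, against 4.87% and 5.39% of all genes. The median was 0.38 with all females and 0.56 with females 1 to 3. Differences above 0 were 28 of 34 with all females and 34 of 34 with females 1 to 3. The count in the fit of 19 ranged from 1 without high-fat female 2 to 15 without chow female 3, and in that of 17 from 2 without female 2 to 27 without chow female 3. Oasl2, an OAS-like antiviral gene, was at 18.5, 20.1, 21.1, 15.9 and 17.1 CPM in females and 11.5 to 14.2 CPM in males, with no overlap (0.54 ± 0.13, adjusted p = 0.0144), a call lost with the largest exon piece alone. Ifit3, which acts in a complex that binds viral RNA, was at 7.89, 11.9, 9.06, 6.80 and 4.62 CPM in females and 3.09 to 5.82 CPM in males (0.93 ± 0.25, adjusted p = 0.0261). Its call was lost in 6 of the fits that left out a single high-fat library (females 2 and 3 and males 1, 3, 4 and 5) and with only the 2 groups fitted. Isg15, a ubiquitin-like modifier, was at 1.85 to 3.78 CPM in females and 1.04 to 2.01 CPM in males and was not called with all females (0.76 ± 0.25, adjusted p = 0.0576). With females 1 to 3 it differed by 0.99 ± 0.24 (adjusted p = 0.0136), a call lost without female 2 or female 3. Ifi27l2a, also interferon-induced and among the largest rises, was at 17.1, 18.4, 17.7, 22 and 21.5 CPM in females and 6.53 to 10.8 CPM in males (1.077 ± 0.19, adjusted p = 0.00183).

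Of the immune cell marker lists, only that of macrophages held calls by edgeR in the fits of 19 and 17 libraries. Among 16 macrophage markers, 3 were called higher in females (Cd68, Fcgr1 and Folr2) and 1 lower (Mertk), with 12 of 16 differences above 0. Over all genes 6.41% were called higher and 3.81% lower, or 4.87% and 5.39% in the fit of 17. The number of macrophage markers called higher was 1 without high-fat female 4 and 5 without chow female 3. It was 3 without females 4 and 5, or 1 when female 1 was left out too. The summed level overlapped, at 278.7 to 318.8 CPM in females and 254.1 to 312.5 CPM in males. Cd68, a lysosomal protein of macrophages, was at 7.72, 7.11, 6.40, 7.55 and 6.37 CPM in females and 4.10 to 5.40 CPM in males (0.61 ± 0.09, adjusted p = 0.000498). None of the 13 tested markers of T, B and natural killer cells was called by edgeR, where 4 had an unadjusted p under 0.05, while DESeq2 called 1 and voom with quality weights 3 higher. Of their differences, 11 of 13 were above 0 (13 of 13 without females 4 and 5), with a median of 0.66 (0.65). Their summed level over the 16 listed was 7.684 to 10.53 CPM in females and 5.934 to 7.463 CPM in males, which did not overlap. All 8 genes of MHC class II presentation had differences above 0 in both fits and none was called by edgeR, DESeq2 or voom (0 with an unadjusted p under 0.05 in edgeR). No adjustment for these levels was made, and their part in the interferon and cell cycle results was not tested. Ifi205, of the Ifi200 family of DNA sensors, lay in the other direction, at 2.63, 1.998, 2.28, 1.29 and 0.834 CPM in females and 7.60 to 12.3 CPM in males (-2.50 ± 0.31, adjusted p = 9.96e-05). Members of that family are close copies of each other, so reads may be divided among them uncertainly. C7 (chr15:4988762-5063773, minus strand), the complement component of the membrane attack complex, was at 3.08, 2.75, 3.17, 3.33 and 2.33 CPM in females and 10.8, 15.4, 8.97, 14.9 and 14.4 CPM in males. Every male lay above every female, and the difference was -2.14 ± 0.17 (adjusted p = 6.62e-07).

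The heart burns mostly fatty acids. CD36 brings them into the cell, CPT1 and the carnitine carrier pass them into mitochondria, acyl-CoA dehydrogenases such as MCAD (encoded by Acadm) begin each round of oxidation and pass electrons to ETF, and PDK4 holds back glucose oxidation by inhibiting pyruvate dehydrogenase. PPAR-alpha drives many of these genes when fat is plentiful. Of 20 genes of mitochondrial fatty acid oxidation, 1 was called higher in females (Cpt1a) and 2 lower (Acadm and Etfa) in the fit of 19 libraries, against 6.41% and 3.81% of all genes, with a median of -0.03. Without females 4 and 5, none was higher and 13 were lower, against 4.87% and 5.39% of all genes. The median was then -0.19, with 1 of 20 differences above 0. The library medians differed within the females, at -0.179, -0.199 and -0.190 in females 1 to 3, at 0.138 and 0.216 in females 4 and 5, and at -0.055 to 0.064 in males. With a GC correction the list gave no call in the fit of 19 and 16 lower in the fit of 17. The count of 13 became 6 when female 3 was left out too.

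Pdk4 (chr6:5483351-5496309, minus strand) was at 1131, 702, 760, 775 and 953 CPM in females and 1768, 1561, 1321, 1278 and 1553 CPM in males. All females lay below all males, by -0.79 ± 0.17 (adjusted p = 0.00675) and by -0.80 ± 0.18 without females 4 and 5, where the call was lost without female 2 or female 3. With the GC correction Pdk4 was not called in the fit of 19 libraries but was called in that of 17 (-0.799, adjusted p = 0.00819). Cd36 was at 2615, 2284, 2207, 2288 and 1847 CPM in females and 2894 to 3124 CPM in males (-0.40 ± 0.08, adjusted p = 0.00378). Its sign turned under the GC correction of 19 libraries, to 0.459 with an adjusted p of 0.197. In the fit of 17 the same correction left Cd36 called lower, at -0.228 (adjusted p = 0.0342). Acadm was at 1746 to 1902 CPM in females and 2091 to 2340 CPM in males (-0.29 ± 0.04, adjusted p = 0.000522). Etfa, which encodes a subunit of the electron carrier ETF, was at 1055 to 1215 CPM in females and 1354 to 1427 CPM in males (-0.26 ± 0.05, adjusted p = 0.00301). Acadm and Etfa did not overlap between the sexes, and neither was called with the GC correction of 19 libraries. Both were called lower with the correction of 17, at -0.331 and -0.235. Further members were not called in the fit of 19 libraries but were called without females 4 and 5. Decr1, a reductase for unsaturated fatty acids, was at 685, 640 and 632 CPM in females 1 to 3, 849 and 836 CPM in females 4 and 5 and 778 to 840 CPM in males (-0.33 ± 0.05 without females 4 and 5, adjusted p = 0.000512). Slc25a20, the carnitine carrier, was at 226, 218 and 231 CPM in females 1 to 3, 304 and 327 CPM in females 4 and 5 and 268 to 307 CPM in males (-0.32 ± 0.05, adjusted p = 0.000599).

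Genes known as PPAR-alpha targets were called in both directions with all libraries. Of 28 tested, 2 were called higher in females (Ucp2 and Cpt1a), a share near the 6.41% of all genes. Another 3 were called lower (Pdk4, Acadm and Cd36), against 3.81%. Each of these 5 calls was lost with the GC correction of 19 libraries, where 1 other member was called higher and none lower. In the fit of 17 the same correction gave none higher and 15 lower. In females 1 to 3 without the correction, none was higher and 11 were lower, against 4.87% and 5.39% of all genes. The number lower was 4 when female 3 was also left out. Cpt1a, the liver form of the mitochondrial entry enzyme, overlapped between the sexes at 78.5 to 102 CPM and 60.3 to 82.3 CPM (0.34 ± 0.09, adjusted p = 0.0206). Its call was lost without females 4 and 5 (adjusted p = 0.0613), and also without high-fat female 5, male 3, male 4 or male 5. Ucp2, a mitochondrial carrier, was at 121 to 191 CPM in females and 99.8 to 107 CPM in males (0.48 ± 0.12, adjusted p = 0.019), and without females 4 and 5 it had an adjusted p of 0.0504. Its call was also lost with the largest exon piece alone and with only the 2 groups fitted, as was that of Cpt1a with only the 2 groups fitted. Other well-known targets were not called. Angptl4, an inhibitor of lipoprotein lipase, ranged from 10.2 to 52.7 CPM among males alone and from 16.9 to 26.2 CPM in females (-0.34 ± 0.36, adjusted p = 0.531). Ucp3, the muscle uncoupling protein, was at 104 to 159 CPM in females and 76.0 to 143 CPM in males (0.41 ± 0.17, adjusted p = 0.131). Acot1, an acyl-CoA thioesterase, had means of 29.1 ± 8.26 and 27.5 ± 4.67 CPM and was not called.

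Downstream mitochondrial lists showed the same dependence on the 2 libraries, and their counts stand against 3.81% of all genes called lower in the fit of 19 and 5.39% in that of 17. Of 12 genes of pyruvate dehydrogenase and its kinases, 3 were called lower in females (Pdk4, Pdhx and Pdpr) and none higher, and 8 lower without females 4 and 5, or 3 when female 2 was left out too. Pdhx, which anchors a subunit of the complex, was at 119 to 132 CPM in females and 136 to 145 CPM in males (-0.19 ± 0.04, adjusted p = 0.00875). Its sign turned with the GC correction of 19 libraries, to 0.035 (adjusted p = 0.862), and its call was lost with the largest exon piece alone. With the correction in the fit of 17, Pdhx was called lower, at -0.236 (adjusted p = 0.00148). Pdpr, a regulator of the phosphatase, was at 78.0 to 86.0 CPM and 94.5 to 108 CPM (-0.26 ± 0.08, adjusted p = 0.035), and its call was lost on leaving out any 1 of high-fat females 2, 3 and 4 or of the 5 males, and any 1 of 10 libraries in the fit of 17. Neither Pdhx nor Pdpr overlapped. Of 19 genes of the tricarboxylic acid cycle, 1 was lower (Sucla2) and none higher, and 7 were lower without females 4 and 5, or 2 when female 2 was left out too. Sucla2, a subunit of succinyl-CoA ligase, was at 852, 814, 739, 683 and 516 CPM in females and 938 to 987 CPM in males (-0.43 ± 0.09, adjusted p = 0.00687; -0.28 without females 4 and 5). With the GC correction of 19 libraries Sucla2 was at -0.072 (adjusted p = 0.594), and its call was also lost with only the 2 groups fitted. In the fit of 17 the correction left it called, at -0.257 (adjusted p = 0.00057). Of 23 genes of branched-chain amino acid breakdown, 2 were lower (Hibch and Aldh6a1) and none higher, a count of 0 without female 4 and 4 without female 1, and 8 were lower without females 4 and 5, or 3 when female 2 was left out too. Acat1, shared by this pathway and ketone use, was at 712 to 802 CPM in females and 839 to 898 CPM in males (-0.20 ± 0.05, adjusted p = 0.0106). It was not called with the GC correction of 19 libraries but was called with that of 17 (-0.257, adjusted p = 0.00221). In complex I, 1 of 35 genes was lower (Ndufs1) and none higher, and 5 were lower without females 4 and 5 (Ndufa9, Ndufa10, Ndufb5, Ndufs1 and Ndufv2), or 1 when female 2 was left out too. Of 52 cytosolic ribosomal protein genes, 12 were called higher in females and none lower, where 6.41% of all genes were called higher. Without females 4 and 5, 1 was called higher (Rpl3), where 4.87% of all genes were. All 52 differences were above 0 in the fit of 19 (median 0.227), and 50 of 52 were in that of 17 (median 0.088). The count of 12 became 1 without female 4 and 39 without female 1 in the fit of 19.

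Regulators and glucose genes were called in small numbers. Ppargc1a, the gene of the mitochondrial coactivator PGC-1alpha, was at 83.2, 80.04 and 71.4 CPM in females 1 to 3, 23.6 and 13.6 CPM in females 4 and 5 and 98.5 to 137 CPM in males (-1.09 ± 0.34, adjusted p = 0.0503). With females 1 to 3 it differed by -0.57 ± 0.12 (adjusted p = 0.00618), a call lost without female 3. Pparg, which encodes the fat cell regulator PPAR-gamma, was at 8.44 to 12.8 CPM in females and 12.8 to 15.4 CPM in males (-0.43 ± 0.10, adjusted p = 0.00995), a call lost with the largest exon piece alone and with only the 2 groups fitted. Most white fat cell markers lay the other way. Of 11 tested, Pparg among them, 9 differences were above 0 (median 0.72), with 1 called lower and none higher, against 3.81% and 6.41% of all genes. The library medians were 0.179, 0.747, 0.157, 1.639 and 0.511 in females 1 to 5 and -0.225 to 0.296 in males. The listed markers summed to 527.6 to 621.9 CPM in females and 587.4 to 612.2 CPM in males. Among 22 genes of glucose uptake and glycolysis, 4 were higher (Slc2a1, Hk1, Pfkfb3 and Eno1) and 1 lower (Pfkfb2), against 6.41% and 3.81% of all genes. The number higher was 9 without female 1. Without females 4 and 5, 3 were higher and 2 lower, against 4.87% and 5.39% of all genes. Slc2a1, the basal glucose transporter GLUT1, was at 12.6 to 18.1 CPM in females and 8.46 to 11.6 CPM in males (0.59 ± 0.10, adjusted p = 0.00173). Pfkfb3, which makes an activator of glycolysis, was at 13.4 to 19.96 CPM in females and 8.76 to 11.3 CPM in males (0.75 ± 0.14, adjusted p = 0.00331). Neither overlapped, and without females 4 and 5 both calls were lost when female 2 was left out. Cyp1a1 (chr9:57687928-57703824, plus strand), the classical target of the aryl hydrocarbon receptor, was at 1.81, 1.42, 1.36, 1.71 and 2.41 CPM in females and 3.72, 4.51, 3.60, 4.34 and 3.46 CPM in males (-1.17 ± 0.20, adjusted p = 0.00162). Its relative Cyp1b1 was at 1.321 to 2.41 CPM in females and 3.60 to 5.11 CPM in males (-1.12 ± 0.20, adjusted p = 0.00213), and without females 4 and 5 its call was lost when female 2 was left out. These were the 2 of 7 tested genes of that receptor's list that were called, against 3.81% of all genes called lower. Both lay below every male in every female, and 9.88% of all genes lay fully apart in either direction. The number called lower was 4 without female 1. The list's median was -0.14, or -0.11 without females 4 and 5. Its library medians were -0.183 to -0.057 in females 1 to 3, -0.439 and -0.690 in females 4 and 5, and -0.074 to 0.039 in males.

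**Figure D3:**
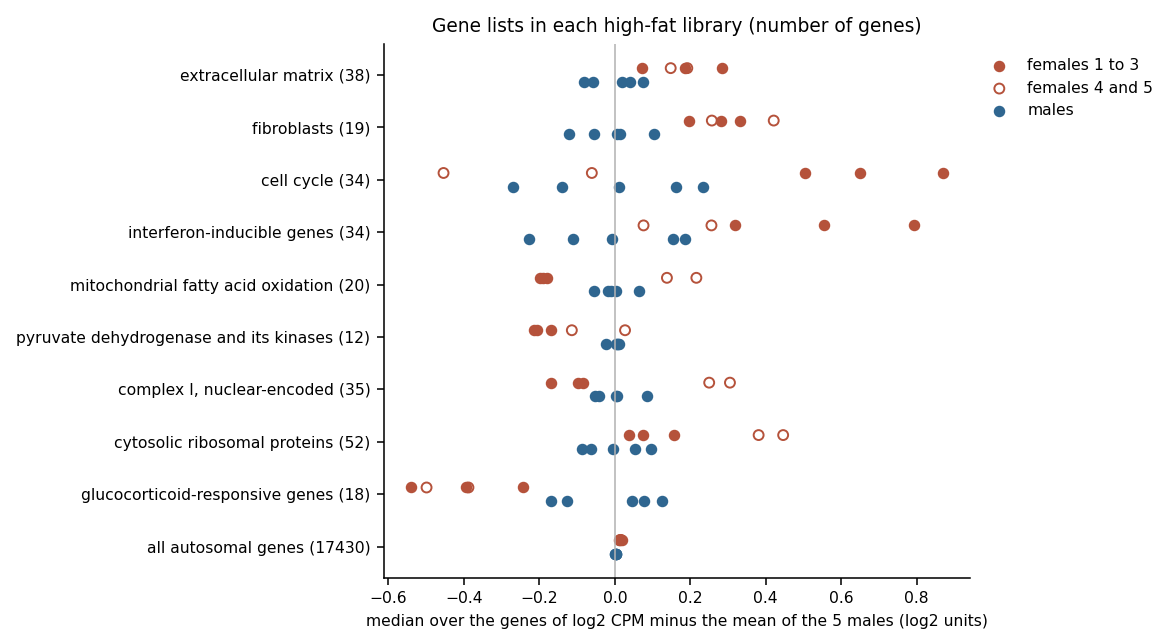
Median over the genes of each list of log2 CPM minus the mean of the 5 males (x axis, log2 units), 1 point per high-fat library; the number of genes is in parentheses, and open points are females 4 and 5. For fatty acid oxidation the open points sit at 0.138 and 0.216 and females 1 to 3 between -0.199 and -0.179, whereas for glucocorticoid-responsive genes all 5 females sit below the males.

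Glucocorticoids from the adrenal gland act on the heart through a nuclear receptor, and 11-beta-hydroxysteroid dehydrogenase 1 (Hsd11b1) regenerates the active hormone inside cells. Of 18 genes listed as glucocorticoid-responsive and tested, 4 were called lower in females (Cdkn1a, Errfi1, Pdk4 and Hsd11b1) and none higher, against 3.81% and 6.41% of all genes. In females 1 to 3, 6 were lower, adding Fkbp5 and Sgk1, against 5.39% of all genes. The count was 3 with female 2 left out too. The median difference was -0.41 (-0.35), and the library medians were -0.541 to -0.244 in females and -0.170 to 0.125 in males. Hsd11b1 (chr1:193221634-193264075, minus strand) was at 7.71, 7.66, 7.08, 10.5 and 9.37 CPM in females and 18.9, 18.1, 17.9, 18.6 and 21.6 CPM in males (-1.17 ± 0.14, adjusted p = 6.9e-05). It was not called with the GC correction of 19 libraries but was called with that of 17 (-1.328, adjusted p = 7.08e-06). Cdkn1a, the cell cycle inhibitor p21, was at 11.2, 9.05, 10.8, 11.7 and 14.4 CPM in females and 25.6 to 40.0 CPM in males (-1.53 ± 0.27, adjusted p = 0.00198). Errfi1, an inhibitor of EGF receptor signalling, was at 8.95 to 14.3 CPM in females and 18.2 to 29.1 CPM in males (-0.98 ± 0.25, adjusted p = 0.019). The call of Errfi1 was lost without high-fat male 3 (adjusted p = 0.0537), with the GC correction of 19 libraries (adjusted p = 0.0541) and, in the fit of 17, without female 2. Fkbp5, a co-chaperone of the receptor, was at 9.25, 9.07, 8.87 and 9.12 CPM in females 1 to 4 but at 18.8 CPM in female 5, and at 12.4 to 25.4 CPM in males (-0.72 ± 0.25, adjusted p = 0.0677). In females 1 to 3 it differed by -1.003 ± 0.22 (adjusted p = 0.00815), a call lost without female 3.

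Sex hormone genes were mostly low or not called. Of 15 receptors and responsive genes tested, 2 were higher in females (Igfbp4 and Stc2) and none lower, against 6.41% and 3.81% of all genes. Leaving out females 4 and 5 gave 2 higher and 2 lower, against 4.87% and 5.39%. Igfbp4, which binds insulin-like growth factors, was at 67.6, 73.3, 78.9, 85.4 and 92.1 CPM in females and 60.8 to 65.1 CPM in males (0.35 ± 0.08, adjusted p = 0.00782), and was not called with the GC correction. Without females 4 and 5 its difference was 0.23. Stc2, a secreted glycoprotein that estrogen induces in other tissues, was at 12.6 to 17.4 CPM in females and 7.51 to 12.2 CPM in males (0.52 ± 0.12, adjusted p = 0.00978), a call lost with only the 2 groups fitted. Without females 4 and 5, the call of Igfbp4 was lost when either remaining female 2 or 3 or any male but male 4 was left out, and that of Stc2 when any female or male 3 or 5 was. Esr1, the estrogen receptor alpha gene, was at 0.182 to 0.687 CPM in females and 0.240 to 0.466 CPM in males (adjusted p = 0.305). Pgr, the progesterone receptor gene, had no count in any of the 10 libraries. Inhbb, which encodes a subunit of activin B, was at 0.922 to 1.35 CPM in females and 1.94 to 2.78 CPM in males, with no overlap (-1.14 ± 0.14, adjusted p = 7.16e-05).

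In cardiomyocytes, ion channel genes set the beat and its recovery. Of 31 tested, 6 were called higher in females (Cacna1g, Kcnh2, Kcnq1, Kcne1, Kcnj5 and Kcnj8) and none lower, against 6.41% and 3.81% of all genes. Without females 4 and 5, 4 were higher and 3 lower (Scn4b, Cacna2d1 and Kcna5), against 4.87% and 5.39% of all genes. In the fit of 19 the number higher was 3 without female 4 and 9 without female 1. The fit of 17 gave 2 higher without female 3. Kcnh2 (chr5:24319589-24351604, minus strand), the pore of the rapid delayed rectifier, was at 79.5, 77.7, 88.5, 102 and 112 CPM in females and 61.9, 57.5, 44.1, 52.8 and 45.2 CPM in males (0.82 ± 0.11, adjusted p = 0.000168). Cacna1g, a T-type calcium channel, was at 26.7 to 30.7 CPM in females and 19.7 to 25.3 CPM in males (0.42 ± 0.06, adjusted p = 0.000548), a call lost with the largest exon piece alone. Neither gene overlapped between the sexes, which was also so of 1125 of the 1782 genes called in the fit of 19. Kcnq1, the pore of the slow delayed rectifier, was at 43.6 to 60.8 CPM in females and 38.4 to 43.6 CPM in males (0.36 ± 0.08, adjusted p = 0.00701), and without females 4 and 5 its call was lost without female 3, male 3 or male 4. Its groups touched at their ends, and it was not called with the GC correction of 19 libraries or with only the 2 groups fitted. Tcap, the Z-disc protein telethonin and also a clock output in heart, was at 504, 549, 666, 840 and 845 CPM in females and 248 to 385 CPM in males (1.02 ± 0.15, adjusted p = 0.000473). Among 22 cytosolic heat shock proteins, which refold proteins under stress, 4 were lower in females (Hsph1, Dnaja1, Dnajb4 and Chordc1) and none higher. Over all genes 3.81% were called lower and 6.41% higher. The count of lower heat shock genes was 0 without female 4 and 7 without female 1. Without females 4 and 5 it was 5, against 5.39% of all genes, and 2 were called lower in both fits.

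Of 20 genes of cardiac stress and the fetal programme, 3 were lower in females (Acta1, Ankrd1 and Rcan1), against 3.81% of all genes, and none higher. Without females 4 and 5, 4 were lower (Nppb, Acta1, Xirp2 and Rcan1), against 5.39% of all genes. Acta1, the skeletal actin re-expressed under load, was at 59.1, 74.6, 95.1, 118 and 93.8 CPM in females and 117, 160, 171, 215 and 198 CPM in males (-0.97 ± 0.22, adjusted p = 0.0123). Female 4 and male 1 overlapped by a narrow margin. Rcan1, a target and inhibitor of calcineurin, was at 39.5 to 50.1 CPM in females and 55.7 to 77.04 CPM in males (-0.60 ± 0.09, adjusted p = 0.000403). Ankrd1, a stretch-responsive gene, was at 463 to 726 CPM in females and 655 to 1105 CPM in males (-0.50 ± 0.14, adjusted p = 0.0348), a call lost without female 5, male 3, male 4 or male 5 and without females 4 and 5 together (adjusted p = 0.0607). It was also lost with the GC correction, by voom with quality weights and with only the 2 groups fitted. The natriuretic peptide genes differed from each other. Nppb was at 54.4 to 120 CPM in females and 90.4 to 208 CPM in males and was not called with all females (-0.63 ± 0.21, adjusted p = 0.0591). Without females 4 and 5 it differed by -0.88 ± 0.21 (adjusted p = 0.012), a call lost without female 1. Nppa, at 37.6 to 86.2 CPM in females and 36.9 to 67.7 CPM in males, was not called (adjusted p = 0.695), nor was Myh7, the slow myosin, at 424 to 689 CPM and 448 to 596 CPM (adjusted p = 0.699).

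Several of the largest differences fell outside the lists. Lvrn, which encodes the aminopeptidase laeverin, was at 0.637, 0.679, 0.544, 0.0413 and 0.712 CPM in females and 2.56 to 4.32 CPM in males (-2.83 ± 0.36, adjusted p = 0.000141). Ano5, a membrane protein of the anoctamin family that is needed for muscle membrane repair, was at 1.12, 0.961, 0.513, 0.289 and 0.303 CPM in females and 2.57 to 4.10 CPM in males (-2.43 ± 0.36, adjusted p = 0.000498). Pde11a, a cyclic nucleotide phosphodiesterase, was at 0.955 to 2.64 CPM in females and 3.70 to 6.00 CPM in males (-1.46 ± 0.25, adjusted p = 0.00191). In all 3 every female lay below every male. Pirt, a regulator of TRP channels in sensory neurons, was at 4.82 to 9.80 CPM in females and 2.46 to 3.92 CPM in males (1.22 ± 0.18, adjusted p = 0.000394). Tspan4, a tetraspanin, was at 33.0 to 50.7 CPM in females and 16.7 to 23.99 CPM in males (1.14 ± 0.11, adjusted p = 8.83e-06). Mthfd1l, of mitochondrial one-carbon metabolism, was at 1.29 to 1.99 CPM in females and 0.523 to 1.07 CPM in males (0.99 ± 0.21, adjusted p = 0.00758), and without females 4 and 5 its call was lost without female 3. Sphk2, a sphingosine kinase gene, was at 29.1 to 42.6 CPM in females and 14.8 to 17.5 CPM in males (1.14 ± 0.10), but it overlaps the 3′ end of Dbp on the opposite strand and was not called when only its largest exon piece was counted (adjusted p = 0.893). Counting by strand is not given in the sources used here, so its reads and those of Dbp cannot be told apart.

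The sex comparison on chow, in 5 females and 4 males that share no library with the high-fat comparison, serves to show what differed. On chow 550 autosomal genes were called (3.16%), 289 higher in females (1.66%) and 261 lower (1.5%); without high-fat females 4 and 5, which changes the shared estimate of spread, 1835 were called (10.4%), 861 higher (4.88%) and 974 lower (5.52%). The chow count was also 241 to 819 with single libraries left out (352 without chow female 1, 335 without chow female 4, 326, 241, 304 and 362 without chow males 1, 2, 3 and 5). Of the genes called on high fat, 279 were called the same way on chow, which is 15.7% of the high-fat list and 50.7% of the chow list, and 1 in the opposite direction. In the fit of 17 libraries 624 were shared (34.6% and 34.1%) and 3 were opposite. The difference of the 2 sex effects was tested as an interaction. It gave 0 called genes (0%) of 17430 by edgeR's quasi-likelihood test, where 1763 had an unadjusted p under 0.05 and the smallest adjusted p was 0.0942. DESeq2 called 54 and limma's voom with sample quality weights 13. Nothing here is therefore called particular to the high-fat diet.

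Side by side, the clock genes differed between the sexes on both diets. Dbp differed by 2.87 ± 0.19 on high fat and 3.36 ± 0.21 on chow, Arntl by -2.04 ± 0.15 and -1.67 ± 0.15, and Per3 by 1.35 ± 0.17 and 1.60 ± 0.19. On chow 10 clock genes were higher and 5 lower. C7 differed by -2.14 ± 0.17 and -2.46 ± 0.18, and Lvrn by -2.83 ± 0.36 and -2.28 ± 0.36. Other genes had unlike values. Col1a2 differed by 0.41 ± 0.06 on high fat and -0.02 ± 0.06 on chow (interaction adjusted p = 0.111). Its chow means were 217 ± 11.7 CPM in females and 220 ± 16.6 CPM in males (SD). Col1a1 differed by 0.44 ± 0.07 and -0.01 ± 0.07 (adjusted p = 0.156). Of the 38 matrix genes, 2 were higher and 4 lower on chow. Pdk4 differed by -0.79 ± 0.17 on high fat and 0.24 ± 0.18 on chow (adjusted p = 0.206), where its means were 317 ± 81.1 CPM in females and 268 ± 43.1 CPM in males. Cyp1a1 differed by -1.17 ± 0.20 and 0.44 ± 0.29 (adjusted p = 0.156), with chow means of 0.263 ± 0.0906 and 0.197 ± 0.0694 CPM. Ucp3 differed by 0.41 ± 0.17 and 1.47 ± 0.19 (adjusted p = 0.214), and Dkk3 by 1.81 ± 0.16 and 0.88 ± 0.17 (adjusted p = 0.231). None of these interactions passed the threshold after adjustment.

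**Figure D4:**
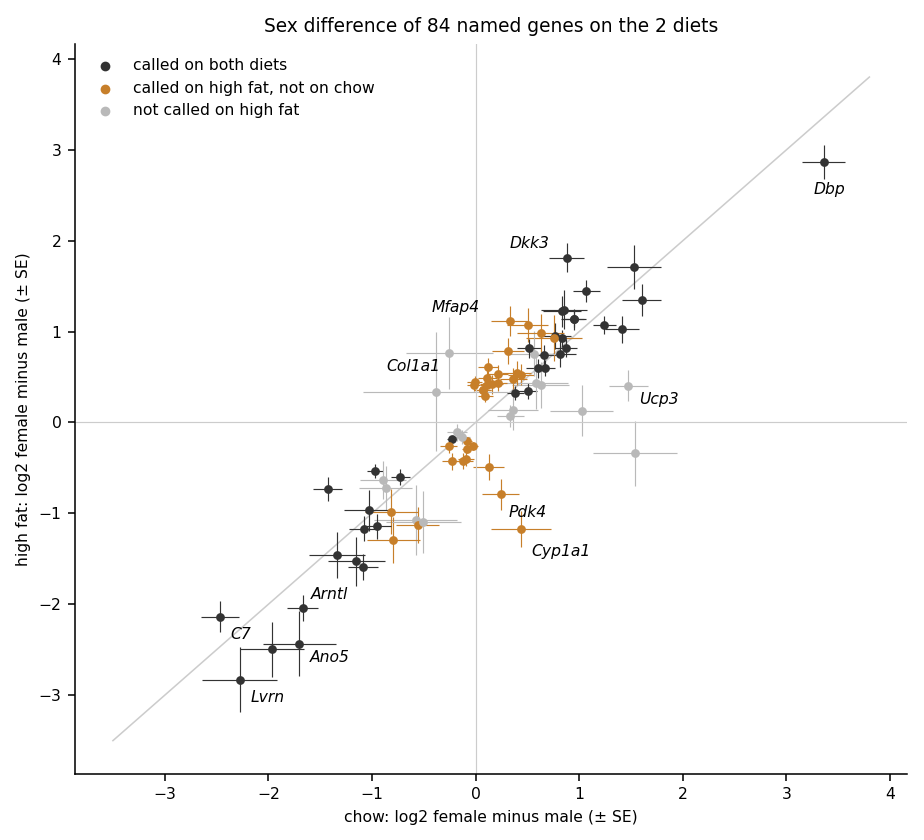
Sex difference (log2, female minus male, with SE bars) of 84 named genes on chow (x axis) and high fat (y axis); the diagonal marks equal differences. Dbp, Arntl, C7 and Lvrn lie near the diagonal, while Pdk4 and Cyp1a1 are below 0 on high fat and above 0 on chow.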

How the data were processed

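Polyadenylated RNA of mouse hearts was measured in 20 libraries, 5 in each combination of sex and diet. The deposited values are whole counts, not normalised, and in 19 files the authors gave counts for 425461 pieces of exons, per the file headers. Named in the submitters' processing notes are the build GRCm39, DESeq2 1.32.0 and Salmon 1.5.1, with no order or role. The file of chow male 4 holds counts per gene and was left out, so the chow males number 4. Counts of pieces were summed per gene. Of 33309 pieces with joined gene identifiers, 27968 were given to the only 1 of their genes with an exon overlapping the piece. The other 5341 were left aside, with 1.17% to 1.29% of all counts. GENCODE vM21 (GRCm38) supplied symbols and GC content. There, 89.3% of genes lie at the position that the files give, so coordinates are printed in GRCm38.

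Genes passing edgeR's expression filter were fitted in 1 model over the 4 groups (edgeR 4.0.16, R 4.3.3, TMM normalisation, quasi-likelihood F-test, p adjusted over all tested genes by Benjamini-Hochberg), with 15 residual degrees of freedom, or 13 without high-fat females 4 and 5. Contrasts were sex on high fat, sex on chow and their difference. The standard error is the log2 difference divided by the square root of F. Lists were described by counts and medians, with no set test. Alternatives were DESeq2 1.42.0, its size factors in edgeR, no filter, at least 1 CPM in at least 5 libraries, a fit to both groups alone, only autosomal genes, a replicate block, voom with sample quality weights (limma 3.58.1), counting the largest exon piece alone, a GC offset per library, and each library left out. The pieces with a single gene identifier and the GC offset in the fit of 17 libraries were added after the data were seen. Intervals were not computed, since a read can count in several pieces, and depth bears on counting error only. The scripts were tested on simulated counts.

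The members and lists were chosen with earlier results of these data known. Named genes were the 15 largest rises and falls among called genes that average 1 CPM or more and carry an established symbol (10 each without females 4 and 5), up to 4 called members of each list, and fixed exceptions for sex labels, the clock, fat supply, stress, other tissues and hormones. Those with values worth a sentence were described, and 1 gene that the rule names is not reported here. Eln, Pdgfra and Dcn were chosen after their values were seen. RefSeq promoter sequences were matched by symbol.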

Additional observations from a re-analysis of the deposited data

Results flagged for a closer look

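Within the groups of 5 high-fat libraries, 11 values of the genes described above lay far from the other 4 of their group, with a gap to the nearest library above the critical share of the group's range (Dixon's test at 95%). Chance gives such a gap in about 1 in 20 groups, which would be 8.5 of the 170 groups tested (85 genes in 2 sexes). In females, Per2 was at 11.7 CPM in female 1 against a median of 15.4 CPM, Ucp2 at 191 CPM in female 5 against 135 CPM, Fkbp5 at 18.8 CPM in female 5 against 9.12 CPM, and Lvrn at 0.0413 CPM in female 4 against 0.637 CPM. In males, male 1 was highest for Etfa (1427 CPM, median 1362 CPM), Acat1 (898 CPM, median 844 CPM) and Pdpr (108 CPM, median 95.4 CPM). Male 5 was highest for Ucp2 (107 CPM, median 100 CPM), Cyp1b1 (5.1 CPM, median 4.01 CPM) and Hsd11b1 (21.6 CPM, median 18.6 CPM), and male 3 lowest for Inhbb (1.94 CPM, median 2.58 CPM). The values of females 4 and 5 among these stand in the 2 libraries whose levels follow GC content.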

How the results depend on the processing

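The count of autosomal genes called between the sexes on high fat was 1048 with no filter, 517 with only the groups compared, 1098 with the GC offset, 961 with the largest exon piece, where fewer genes were tested, and 1037 to 3393 with single libraries left out. Without high-fat females 4 and 5 the range with single libraries left out was 565 to 1965. On chow the count was 862 by DESeq2, 327 with no filter, 1469 with only the groups compared, 1816 by voom with quality weights, 223 with the largest exon piece and 241 to 819 with single libraries left out. The interaction gave 54 genes by DESeq2, 13 by voom with quality weights, and 0 to 3 with single libraries left out (3 without high-fat female 1). Where not stated, the cause was not tested. Libraries with the same replicate number did not deviate together (r of -0.021 to 0.041, and 2 of 5 females correlated best with the male of their own number), so the numbers were not read as pairs. With a replicate block the counts were 1791 on high fat, 1379 without females 4 and 5, 430 on chow and 0 for the interaction. Of 85 genes described, 69 were called in the fit of 19 libraries. Of these, 64 remained called with each single library left out and 40 under every alternative. The calls lost were 17 with the GC offset, among them Cd36, Acat1 and Pdhx, whose sign turned, 12 with the largest exon piece and 11 with only the groups compared. With the GC offset in the fit of 17 libraries, Cd36, Acat1 and Pdhx were called lower, at -0.228, -0.257 and -0.236. Cpt1a, Ucp2, Igfbp4, Kcnq1 and Notch3 were not called there. Where a sign turned, the gene was not called under that alternative. With single libraries left out, Nr1d2 ranged from -0.046 (without high-fat female 2; -0.007 without female 1) to 0.358, Angptl4 from -0.547 to 0.067 (without male 1), Nppa from -0.016 (without female 4) to 0.274 and Myh7 from -0.021 (without female 2) to 0.145. By voom, Angptl4 was at 0.033 and Nppa at -0.040. Without females 4 and 5, Nppa was at -0.144. With the GC offset, Cd36 was at 0.459, Acat1 at 0.044, Pdhx at 0.035, Decr1 at 0.196 and Myh7 at -0.046. Depth limits the genes under 1 CPM most, since few counts stand behind them.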
